A study of Mus musculus with 2 samples.

Results

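Histone acetylation genes were examined in open chromatin profiles of mouse regulatory T (Treg) cells. The set held 33 genes in 5 classes: 9 acetyltransferases (writers), 11 zinc-dependent deacetylases and 7 sirtuins (erasers), 5 bromodomain readers and the corepressor scaffold Ncor1. Members were taken by symbol, and every peak that the authors assigned to one of these symbols was kept. This gave 38 of the 19680 peaks in the TKT cKO list and 65 of the 34440 peaks in the WT list. The 33 genes compare with 19459 symbols that carried a peak in either list.

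The assay was ATAC-seq, in which a transposase cuts accessible DNA, so that a peak marks a stretch of open chromatin. TKT cKO Treg cells came from Foxp3cre/+ TKTfl/fl females, in which Cre under Foxp3 control deletes transketolase, an enzyme of the non-oxidative pentose phosphate pathway. WT Treg cells came from Foxp3cre/+ females with intact Tkt. Both groups were untreated C57BL/6 mice aged 7 weeks, and both carried the same single Foxp3-Cre allele. Foxp3 lies on the X chromosome, so in a female with a single Cre allele X inactivation leaves Cre in only a share of the Treg cells, and the labels call the females chimeric. From spleen and lymph node, 50000 CD4+CD25+YFP+ cells were sorted for each library, with YFP marking the Cre-expressing cells. There was 1 library per group. No difference below has a replicate check, no p-value is given, and every comparison is between these libraries.

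Acetyltransferases transfer an acetyl group from acetyl-CoA to lysines of histone tails, which loosens chromatin and creates docking sites for bromodomain proteins. The enzymes that remove the mark belong to the zinc-dependent deacetylases and the NAD-dependent sirtuins, although not every member of these families acts on histones. Some, such as Hdac3, work within corepressor complexes, among them that built on Ncor1. In Treg cells the same enzymes also act on Foxp3 itself: p300 and Tip60 (encoded by Ep300 and Kat5) acetylate it, and Sirt1 and other deacetylases reverse this.

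Promoter sequences of some members are shown first. A peak called in WT alone lay on some of them and a peak called in both libraries on others. This split was not particular to the members: 72.7% of their WT promoter peaks overlapped a cKO peak, beside 74.3% of all WT promoter peaks. Each sequence runs from 250 bases before a RefSeq start to 50 bases after it (RefSeq, build GRCm38.p6). Capitals mark every match, on either strand, to 1 of 8 short motif letter strings listed further on. The first 3 windows lay in a WT peak with no cKO partner and the last 3 in peaks of both libraries. Sirt4 is at chr5:115484248-115484547 on the minus strand, Kat2b at chr17:53566721-53567020 on the plus strand, Kat2a at chr11:100712418-100712717 (minus), Hdac4 at chr1:92180292-92180591 (minus), Brd2 at chr17:34119851-34120150 (minus) and Kat5 at chr19:5610045-5610344 (minus).
Sirt4: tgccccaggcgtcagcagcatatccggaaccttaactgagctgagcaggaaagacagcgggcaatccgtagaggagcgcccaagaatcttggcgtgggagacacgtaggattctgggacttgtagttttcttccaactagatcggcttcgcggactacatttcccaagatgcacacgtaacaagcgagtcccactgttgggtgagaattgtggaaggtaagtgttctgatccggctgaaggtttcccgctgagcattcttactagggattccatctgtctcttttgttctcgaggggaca
Kat2b: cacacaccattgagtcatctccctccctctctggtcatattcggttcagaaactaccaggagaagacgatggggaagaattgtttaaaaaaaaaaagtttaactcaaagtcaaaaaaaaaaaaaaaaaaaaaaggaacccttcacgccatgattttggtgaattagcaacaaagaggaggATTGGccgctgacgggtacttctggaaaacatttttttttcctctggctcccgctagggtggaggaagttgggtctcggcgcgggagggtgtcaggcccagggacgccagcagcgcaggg
Kat2a: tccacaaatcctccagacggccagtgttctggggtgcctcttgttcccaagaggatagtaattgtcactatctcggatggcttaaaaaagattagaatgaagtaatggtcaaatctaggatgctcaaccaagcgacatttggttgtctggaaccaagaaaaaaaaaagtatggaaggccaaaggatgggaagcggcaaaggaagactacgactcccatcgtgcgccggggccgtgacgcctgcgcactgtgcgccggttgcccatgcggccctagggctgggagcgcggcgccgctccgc
Hdac4: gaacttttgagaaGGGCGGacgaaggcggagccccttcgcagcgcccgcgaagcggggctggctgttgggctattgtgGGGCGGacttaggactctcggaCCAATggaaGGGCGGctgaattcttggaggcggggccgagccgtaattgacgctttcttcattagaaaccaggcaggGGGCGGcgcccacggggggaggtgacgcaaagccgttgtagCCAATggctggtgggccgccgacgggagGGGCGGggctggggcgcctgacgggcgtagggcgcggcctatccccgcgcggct
Brd2: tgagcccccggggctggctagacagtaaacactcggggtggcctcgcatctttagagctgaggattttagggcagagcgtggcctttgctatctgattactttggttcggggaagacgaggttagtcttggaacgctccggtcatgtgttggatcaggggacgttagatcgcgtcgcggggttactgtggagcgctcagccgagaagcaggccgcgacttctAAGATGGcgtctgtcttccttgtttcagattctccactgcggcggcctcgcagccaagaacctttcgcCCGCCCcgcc
Kat5: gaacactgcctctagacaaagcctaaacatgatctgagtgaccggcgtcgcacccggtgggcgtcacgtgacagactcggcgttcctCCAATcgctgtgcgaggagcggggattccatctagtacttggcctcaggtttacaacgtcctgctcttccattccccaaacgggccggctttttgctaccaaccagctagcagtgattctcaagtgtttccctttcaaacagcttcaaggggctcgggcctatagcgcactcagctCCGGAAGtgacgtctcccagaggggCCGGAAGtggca

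The 6 windows are examples chosen by peak score, and their GC content does not stand for the members: over all 43 member windows the median was 66.2% for windows touched in WT alone and 62% for windows touched in both libraries. In the printed windows GC content was 52% for Sirt4, 47% for Kat2b and 54.3% for Kat2a, against 68% for Hdac4, 58.7% for Brd2 and 57% for Kat5. The Sirt4 and Kat2a windows held 0 matches and the Kat2b window held 1 CCAAT box. The Hdac4 window held 7 matches (5 GC boxes and 2 CCAAT boxes), the Brd2 window 2 and the Kat5 window 3, of which 2 were ETS cores. A match describes letters only and is neither a binding site nor a cause.

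The libraries themselves differed in size. The cKO list covered 20.7 Mb with a median peak width of 974 bp, and the WT list covered 36 Mb with a median of 977 bp. Minimum widths were 465 bp among cKO peaks and 360 bp among WT peaks. Read totals were not used, so depth is unknown, and a peak missing from a list cannot be told from one that fell below the caller's threshold. Tkt carried 1 peak in each list and the peaks overlapped; a peak at this gene does not show whether its floxed part was deleted. Of 7 Treg marker genes, 6 carried peaks in both libraries, with 16 cKO and 24 WT peaks in all, and Tnfrsf18 had none in either. Among markers of other cells, 2 of 5 B cell genes had peaks in each library (2 cKO and 2 WT peaks), and Ms4a1 and Pax5 had none. Myeloid genes carried 2 cKO and 2 WT peaks, CD8 T and NK genes 4 cKO and 6 WT peaks, and erythroid and stromal genes 8 cKO and 11 WT peaks, with 1 peak at the myeloid gene Lyz2 and 1 at the erythroid gene Gata1 called in cKO alone and none in either library at Csf1r, Itgam, Cd8a, Ncr1 or Hbb-bt. The part of these in the results below was not tested.

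All 38 cKO peaks of the members overlapped a WT peak by at least 1 bp, a share of 100% (exact Clopper-Pearson 95% interval 90.7 to 100). Across the cKO list, 2.36% of peaks had no WT partner. In the other direction, 37 of the 65 WT peaks had a cKO partner (56.9%, interval 44 to 69.2) and 28 had none, while 43.9% of all WT peaks had none. The members' share therefore lay near that of the whole list. Intervals here and below cover counting error only, since neighbouring peaks are not independent.

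Of the 33 genes, 24 carried an assigned peak in both libraries and 5 in WT alone: Kat2a, Kat7, Hdac11, Sirt4 and Brd1. No member had a peak in cKO alone, as against 1.74% of all genes with a cKO peak. The 5 genes are out of 29 with a WT peak, and the share over all genes was 28.2%. In 13 of the 29 genes every WT peak had a cKO partner, where 46.8% of all genes did so. The other 4 members, Ep300, Sirt2, Sirt3 and Sirt7, had no assigned peak in either list. The WT list was also reduced to its 19680 highest scoring peaks, so that both lists were equally long. In that setting 31 of 38 WT member peaks were shared (81.6%), beside 83% of all WT peaks. WT-only genes numbered 3 of the 26 members with a WT peak (11.5%): Kat2a, Sirt4 and Brd1. Over all genes the share was 10.9%, so the members lay near it.

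**Figure D1:**
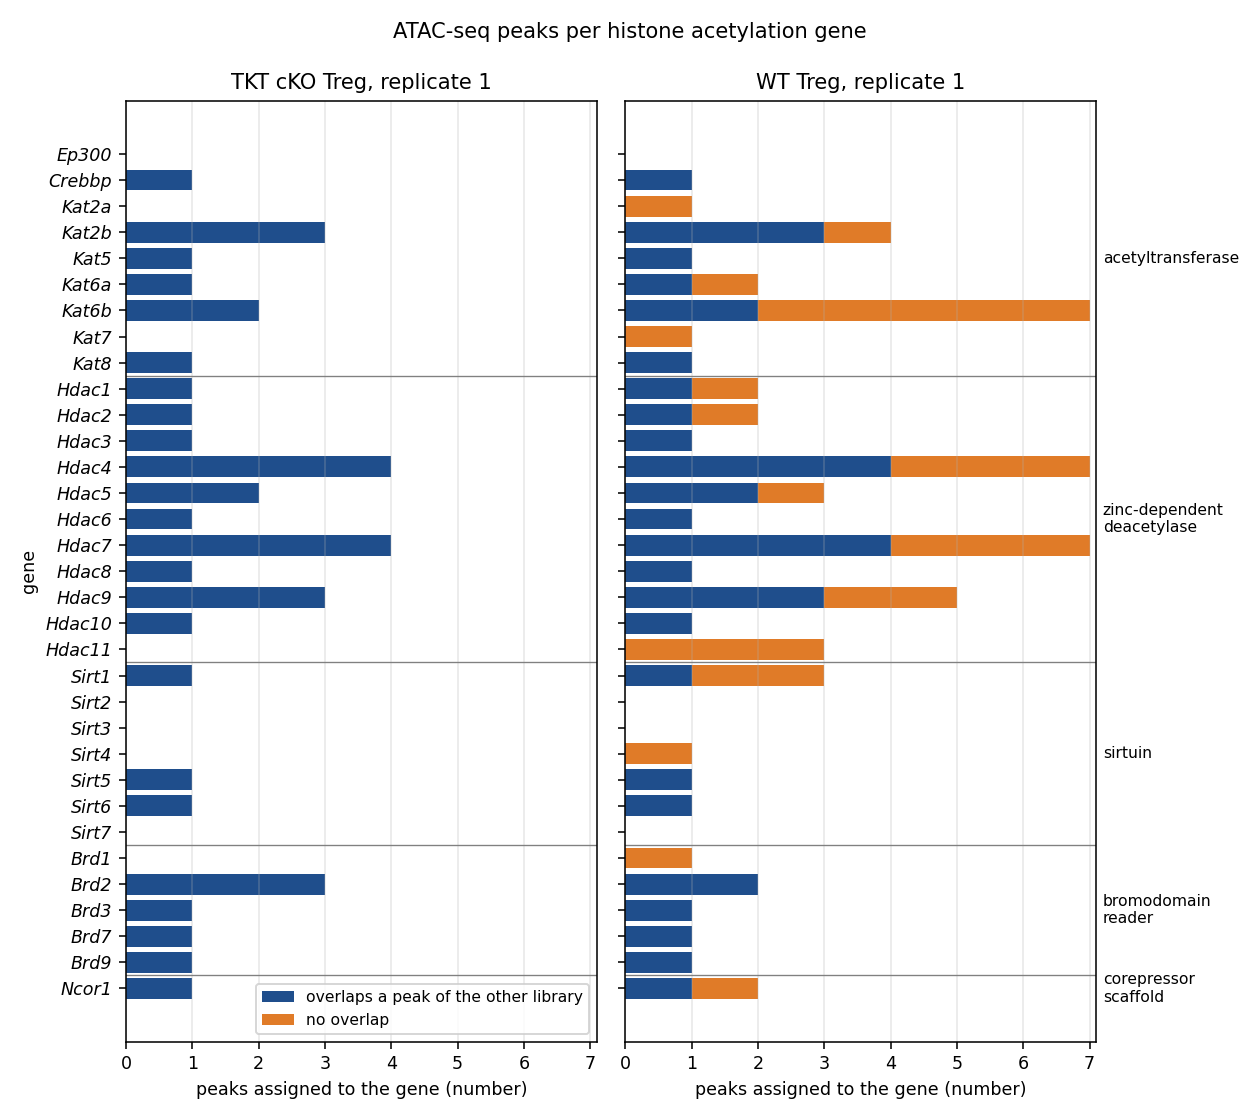
Number of peaks assigned to each of the 33 genes (horizontal axis) in the TKT cKO library (left) and the WT library (right), 1 library each; blue bars are peaks that overlap a peak of the other library and orange bars peaks that do not. All 38 cKO peaks are blue, and 28 of the 65 WT peaks are orange, with 5 of them at Kat6b.

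Promoter peaks, which in the authors' annotation lie within 3 kb of a transcription start, were shared more often than others. Among members, 24 of 33 WT promoter peaks had a cKO partner (72.7%, interval 54.5 to 86.7), and 9 did not, beside 25.7% over all WT promoter peaks. Outside promoters, 13 of 32 had one (40.6%, interval 23.7 to 59.4) and 19 did not, beside 58.6% over all such WT peaks. With lists of equal length the gap was smaller, at 23 of 27 promoter peaks (85.2%) and 8 of 11 others (72.7%). Promoters made up 25 of the 38 cKO peaks (65.8%) and 33 of the 65 WT peaks (50.8%), against 57.8% of all cKO peaks and 44.5% of all WT peaks. Introns held 9 of the 38 cKO peaks (23.7%) and 22 of the 65 WT peaks (33.8%), against 19.7% of all cKO peaks and 26.3% of all WT peaks. Of those 22 WT peaks 8 were shared (36.4%, interval 17.2 to 59.3), near the 39.8% of all WT intron peaks.

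Among the acetyltransferases, 9 cKO and 18 WT peaks were assigned, and 9 of the 18 WT peaks were shared (50%, interval 26 to 74). Crebbp, which encodes the coactivator CBP, had 1 promoter peak in each library, at the 87.6th score percentile of the cKO list and the 89.3rd of the WT list. Kat5 (Tip60, the catalytic subunit of the NuA4 complex) had 1 shared promoter peak at percentile 71.6 in cKO and 88.3 in WT. Kat8 (Mof, which acetylates histone H4) had 1 shared promoter peak, at percentile 58.1 in cKO and 86.2 in WT. All percentiles rank a peak's score within its own list. They describe each list and, since the lists differ in length, give no change between them. Raw scores printed for both libraries give no change either, because their scale is not explained. The median score was 16.6 over the whole cKO list and 28.1 over the whole WT list.

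Kat6b (Morf, a relative of Kat6a in the MYST family) had 2 cKO peaks and 7 WT peaks, the largest number of unshared peaks (5) of any member. Its strongest shared peak, the promoter peak chr14:21499792-21501377 in WT, scored 82.7 in cKO (percentile 96.1) and 201 in WT (percentile 93). The strongest unshared WT peak, chr14:21506979-21507914 in intron 1 of 16, stood at percentile 51.9. The other 4 unshared WT peaks lay in intron 2 at percentiles 12.1 to 31.5. Unshared peaks at Kat6b were thus intronic and mostly of low score, and its promoter was open in both libraries. Kat6a (Moz) kept its main promoter peak in both libraries, at percentile 64.8 in cKO and 74.2 in WT. A second WT promoter peak, chr8:22860195-22860633, was 439 bp wide, stood at percentile 8.67 and had no cKO partner.

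Kat2a and Kat2b encode Gcn5 and Pcaf, paralogs that serve as the alternative catalytic subunits of the SAGA and ATAC coactivator complexes. Kat2a had no cKO peak and 1 WT peak, chr11:100712068-100712865, which scored 27.3 (percentile 49.2), covered its RefSeq start and contains the window printed above. The nearest cKO peak, assigned to Hspb9, ended at -1292 bp from that start and was shared. Kat2b had 3 cKO peaks and 4 WT peaks. Its WT peak over the start, chr17:53566441-53567036 (score 28.2, percentile 50.1), had no cKO partner. The shared promoter peak beside it began 614 bp inside the gene in cKO (score 18.6, percentile 53.7) and 588 bp inside in WT (score 65.8, percentile 69.9). At Kat2b the start itself was therefore without a called cKO peak and the first part of the gene was not.

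Kat7 (Hbo1) and Ep300 show what the single gene per peak leaves out. Kat7 had 1 assigned peak, in WT, in intron 4 of 13 (chr11:95298261-95298875, percentile 23.5), and by assignment counted as absent in cKO. Its RefSeq start lay in a peak of both libraries that the authors gave to the predicted gene Gm11520, at percentile 99.9 in each list (chr11:95309416-95310683 in cKO, chr11:95309399-95310867 in WT). Ep300, the gene of p300, had no assigned peak at all. Its start lay in a shared peak assigned to 1110025M09Rik, at percentile 91.9 in cKO and 95.5 in WT. Both starts were thus open in both libraries.

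The zinc-dependent deacetylases had 19 cKO and 33 WT peaks, and 19 of the 33 WT peaks were shared (57.6%, interval 39.2 to 74.5; 87.5% with lists of equal length). Hdac1 and Hdac2, the paired catalytic subunits of the NuRD, Sin3 and CoREST complexes, each had 1 cKO and 2 WT peaks, and each kept its promoter peak. The Hdac1 promoter stood at percentile 80.7 in cKO and 89.4 in WT. The Hdac2 promoter stood at percentile 86.8 in cKO and 79.9 in WT. The second Hdac2 peak in WT, chr10:36935748-36936774, lay at -37770 bp from the start and scored 40.8 (percentile 59.3). It was the highest scoring unshared peak assigned to any zinc-dependent deacetylase. Hdac3, the enzyme of the complex built on Ncor1, had 1 shared promoter peak, at percentile 82.3 in cKO and 84.8 in WT.

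The class IIa enzymes Hdac4, Hdac5, Hdac7 and Hdac9, which shuttle between nucleus and cytoplasm and restrain MEF2 factors, carried most of the peaks of this class. Hdac4 had 4 cKO and 7 WT peaks. Its promoter peak, chr1:92180281-92181011 in WT, was the strongest of all member peaks in both libraries, with a score of 103 in cKO (percentile 98.3) and 287 in WT (percentile 98.4). Its strongest unshared WT peak, chr1:92164055-92164770 in intron 1 of 26, stood at percentile 26.2. Counted by the RefSeq gene span instead, Hdac4 held 9 cKO and 16 WT peaks, of which 5 cKO and 10 WT peaks had been assigned to predicted (Gm) genes. All 9 cKO peaks were shared, and 9 of the 16 WT peaks. An intronic peak assigned to Gm37036, chr1:92079648-92080636, was the strongest of these in WT (percentile 87.4) and stood at 64.6 in cKO.

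Hdac7, a repressor of developing T cells, had 4 cKO and 7 WT peaks, and 4 of the 7 were shared. The shared one with the highest WT score lay in intron 1 of 24, chr15:97824948-97825915 in WT, at percentile 85.3 in cKO and 91.5 in WT. A shared intergenic peak, at -4724 bp in WT, stood at percentile 90.3 in cKO, where it was the strongest Hdac7 peak, and 91.2 in WT. The WT promoter peak chr15:97831417-97832083 (score 9.28, percentile 20.9) had no cKO partner, nor did the WT peak chr15:97821335-97822196 in intron 1 (score 21.7, percentile 43.2). Both strong elements of Hdac7 were thus called in both libraries, and the peak over an internal start in WT alone.

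Hdac9, whose loss raises Treg numbers and function in mice, had 3 cKO and 5 WT peaks and no promoter peak in either library. Its assigned peaks were weak. The 3 in cKO lay at percentiles 5.82, 7.28 and 10.5, and the 5 in WT between 13.1 and 41.1. The shared peak with the highest WT score, chr12:34495978-34498119 (intron 1 of 24), scored 3.65 in cKO and 20.2 in WT, and the strongest unshared one, chr12:34489711-34490083, lay in the same intron at percentile 36.4 in WT. The RefSeq span of Hdac9 held 5 cKO and 11 WT peaks. The strongest of these in WT was a shared peak assigned to 4921508M14Rik, at percentile 63.4 in WT and 7.67 in cKO. Hdac5 had 2 cKO and 3 WT peaks, and 2 of the 3 were shared. Its promoter peak stood at percentile 54.9 in cKO and 85.3 in WT, and its 5′ UTR peak at 32.1 in cKO and 69.5 in WT.

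Of the remaining deacetylases, Hdac6 (a cytoplasmic tubulin deacetylase), Hdac8 (which acts on the cohesin subunit Smc3) and Hdac10 (a polyamine deacetylase) each had 1 promoter peak per library, all shared. Hdac6 stood at percentile 55 in cKO and 72.4 in WT. Hdac8 stood at 52.8 in cKO and 67 in WT. Hdac10 stood at 64.5 in cKO and 83.6 in WT. Hdac11, the sole class IV enzyme, differed from these: it had no cKO peak and 3 WT peaks, none of them shared. The WT peaks were chr6:91156516-91157236 over the start (score 18.3, percentile 38.4), chr6:91153098-91154256, at -2409 bp (score 21.3, percentile 42.7), and chr6:91139741-91140859, at -15806 bp (score 14.2, percentile 31.7). All 3 stood in the lower score range of the WT list.

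The sirtuins had few assigned peaks, 3 in cKO and 6 in WT, and 3 of the 6 were shared (50%, interval 11.8 to 88.2). Sirt5 (a mitochondrial desuccinylase) and Sirt6 (a chromatin-bound deacetylase) each had 1 shared promoter peak. Sirt5 stood at percentile 76.7 in cKO and 87.3 in WT, and Sirt6 at 58.4 in cKO and 80.2 in WT. Sirt2 (a cytoplasmic tubulin deacetylase), Sirt3 (a mitochondrial deacetylase) and Sirt7 (a nucleolar enzyme) had no assigned peak, but the start of each lay in a shared peak assigned to a neighbour. That peak was given to Nfkbib for Sirt2 (percentile 94.9 in cKO and 96.8 in WT), to Psmd13 for Sirt3 (70.3 in cKO and 89.7 in WT) and to Mir6936 for Sirt7 (55.1 in cKO and 59.2 in WT).

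Sirt4, a mitochondrial sirtuin, carried the highest scoring unshared peak of all members. The WT peak chr5:115484002-115484810 scored 79.2 (percentile 73.8) and covered a RefSeq start and the whole Sirt4 window printed above, and no cKO peak overlapped it. In the eighth of 10 equal score bins of the WT list, where this peak lay, 5.26% of all peaks had no cKO partner. A more distant RefSeq start of Sirt4 lay in a shared peak assigned to Gm24265, at percentile 99.1 in cKO and 99.4 in WT.

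Sirt1, which deacetylates Foxp3 and p53 among others, had 1 cKO and 3 WT peaks. Its RefSeq start lay in the WT peak chr10:63338947-63339870 (score 20.9, percentile 42), which had no cKO partner. A further WT peak, chr10:63377216-63377794 (percentile 40.7), was unshared as well. The shared peak assigned to Sirt1, chr10:63381676-63382881 in cKO (percentile 81.3) and chr10:63381671-63383040 in WT (percentile 82), began, in WT, 42636 bp from the RefSeq start of Sirt1. It belonged to another annotated Sirt1 transcript and covered the RefSeq 5′ end of the neighbouring gene Dnajc12. The peak over the RefSeq start of Sirt1 was therefore called in WT alone.

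**Figure D2:**
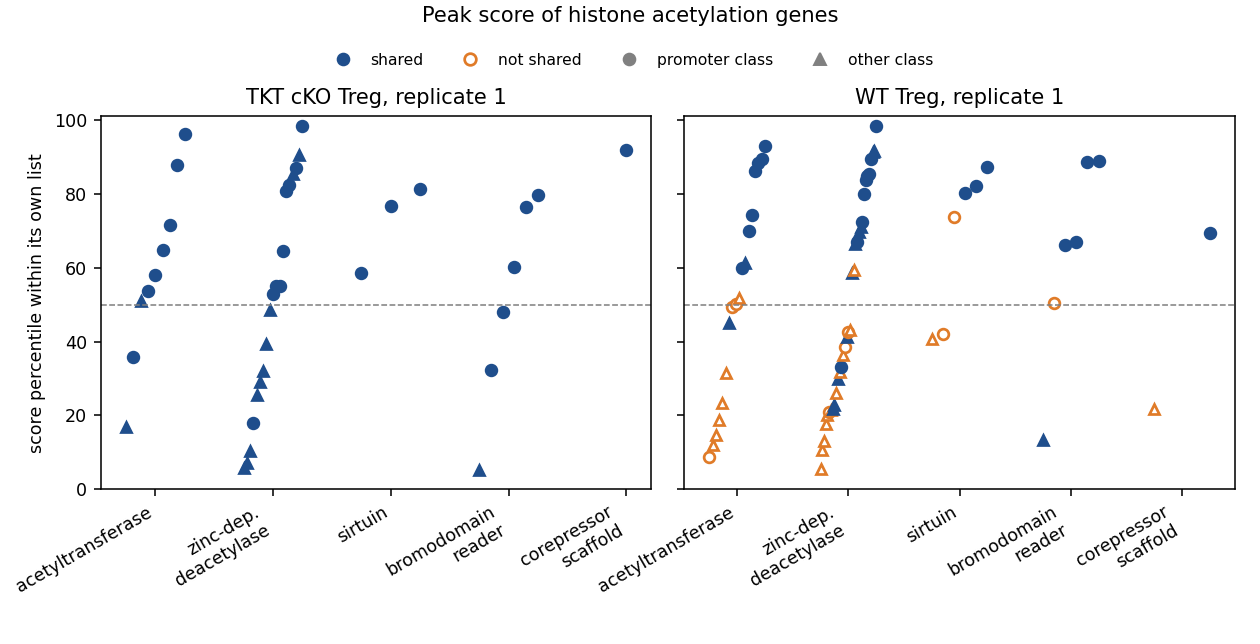
Score percentile within its own list (vertical axis) of every peak of the members, by class, in the TKT cKO library (left) and the WT library (right); filled blue symbols are shared peaks, open orange symbols unshared, circles promoter peaks and triangles others, and the dashed line is the median of each list. Unshared WT peaks lie mostly below the dashed line, and the Sirt4 promoter peak at 73.8 is the highest of them.

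The bromodomain readers had 6 peaks in each library, and 5 of the 6 WT peaks were shared (83.3%, interval 35.9 to 99.6). With both lists limited to peaks above their own median score, 2 of 5 were shared (40%), and the cKO peaks of Brd3 and Brd7 lay below that median. Brd2, a BET protein that binds acetylated histones at promoters, had 3 cKO and 2 WT peaks because 1 WT promoter peak of 4188 bp overlapped 2 cKO peaks of 1894 and 974 bp. Its WT peak stood at percentile 88.8, and the cKO peaks at 79.6 and 60.2. Brd3, also a BET protein, had 1 shared promoter peak, at percentile 32.4 in cKO and 66.9 in WT. Brd7 (a PBAF subunit) stood at percentile 48 in cKO and 66.1 in WT. Brd9 (a subunit of non-canonical BAF) stood at 76.4 in cKO and 88.5 in WT. Brd1, a scaffold of Kat7 complexes, was the exception: it had no cKO peak and 1 WT peak, chr15:88732545-88733463, which began 770 bp inside the gene by the authors' annotation, scored 28.7 (percentile 50.5) and was unshared.

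Ncor1, the platform that recruits and activates Hdac3, had 1 cKO and 2 WT peaks. Its promoter peak was shared, with a width of 1328 bp, a score of 65.5 and percentile 91.9 in cKO, and a width of 2194 bp, a score of 64.1 and percentile 69.4 in WT. The second WT peak, chr11:62387617-62388547 in intron 13 of 44 (percentile 21.8), was unshared.

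Starts were then examined without the authors' gene assignment, by asking for any peak within 500 bp of a RefSeq start. By that measure 26 members were called in both libraries, 5 in the WT library alone and 2 in neither. The 5 were Kat2a, Kat2b, Hdac7, Hdac11 and Sirt1, out of 31 members with a WT peak there (16.1%). Over all RefSeq protein-coding genes with a WT peak at a start, the share without a cKO peak was 12.6%. Hdac9 and Brd1 had no peak at a start in either library. Within 1000 bp, Kat2b and Hdac7 had a cKO peak as well and Brd1 had a WT peak, which left 4 of 32 in WT alone (12.5%), as against 12.7% of all genes. Among the 33 members, Kat2a, Hdac11, Sirt1 and Brd1 were those where a peak within 1000 bp of a start was called in WT but not in cKO. These 4 WT peaks stood at percentiles 38.4 to 50.5, in the middle of the WT list. Unshared peaks were common in their score bins. They made up 68% of all WT peaks in the bin of Hdac11, 53% in that of Kat2a and Sirt1, and 36.7% in that of Brd1.

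**Figure D3:**
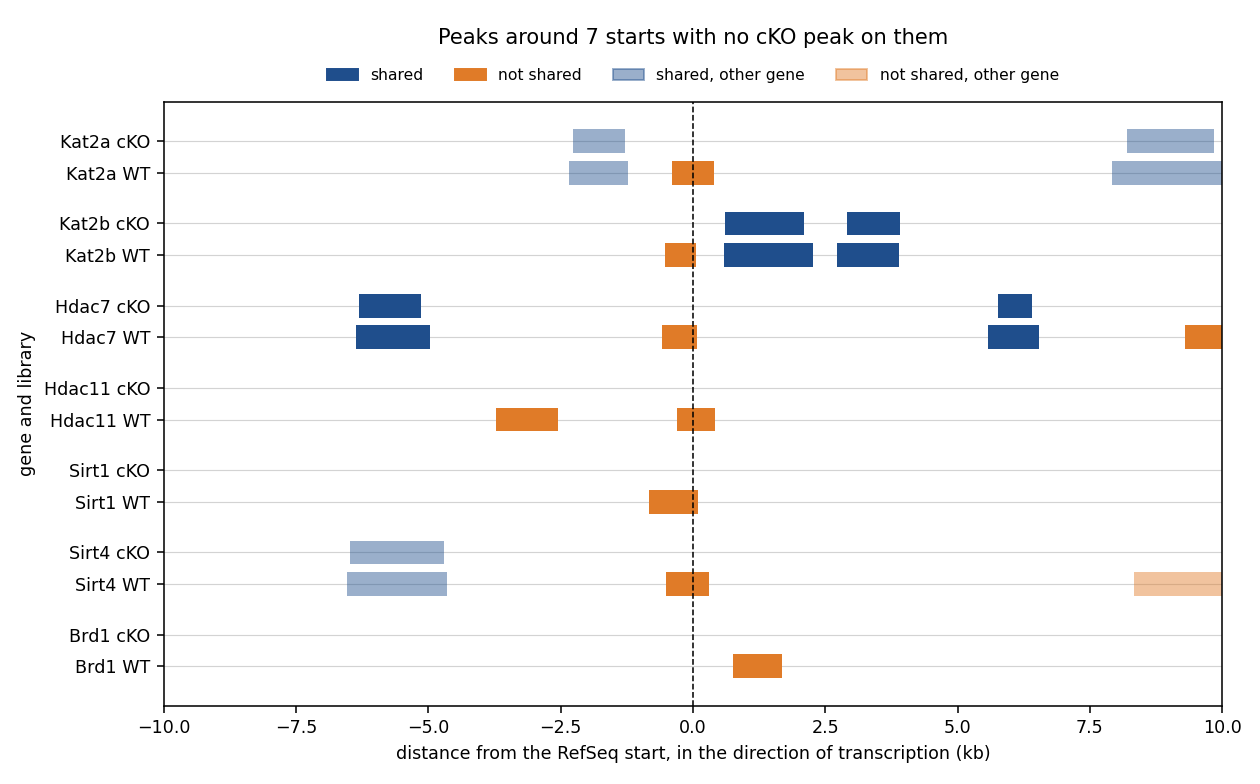
Peaks within 10 kb of a RefSeq start of 7 members, as distance from the start in the direction of transcription (horizontal axis, kb), with the TKT cKO row above the WT row of each gene; blue peaks are shared, orange peaks are not, and pale bars are peaks assigned to another gene. Kat2a, Kat2b, Hdac7, Hdac11, Sirt1 and Sirt4 have an orange WT peak on the start and no cKO peak there, and the Brd1 peak lies inside the gene.

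Score and width separated shared from unshared member peaks in the way they did across the list. Shared WT member peaks had a median width of 1181 bp and a median percentile of 72.4, and unshared ones 718 bp and 28.8. Over all WT peaks the medians were 1213 bp and 71.4 for shared peaks and 662 bp and 25.1 for unshared ones. Below the median WT score 23 of 30 member peaks were unshared, where 75.9% of all peaks were. Above it 5 of 35 were unshared, where 12% of all peaks were. Those 5 were at Sirt4, Hdac2, Kat6b, Brd1 and Kat2b. All 16 member peaks in the top 2 of the 10 score bins had a cKO partner, among them the promoters of Crebbp, Kat5, Kat8, Hdac1, Hdac3, Hdac4, Brd2 and Brd9. The 5 member WT peaks narrower than 465 bp, the narrowest cKO peak, were all unshared, as were 2844 of the 3007 such WT peaks.

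Shared peaks were also ranked among one-to-one pairs, in which 1 cKO peak overlaps 1 WT peak, so that both libraries are ranked over the same peaks. There were 18926 such pairs, 36 of them at members. The cKO rank minus the WT rank had a median of 1.95 percentile points at members and -0.359 over all pairs, and the median size of the shift was 7.23 points at members and 7.51 over all pairs. For 32 of the 36 the shift lay between the 5th and 95th percentile of all pairs (-20.5 to 22.1 points). The Ncor1 promoter had the largest shift: it ranked at 91.6 in cKO and 46.2 in WT, a difference of 45.3 points, and 99.9% of all pairs had a smaller one. An intron 2 peak of Hdac4, chr1:92130242-92130802 in WT, ranked at 37.9 in cKO and 4.39 in WT (33.5 points). The Hdac2 promoter ranked at 86.4 in cKO and 64.1 in WT (22.3 points). Another intron 2 peak of Hdac4, chr1:92118967-92119813, ranked lower in cKO, with 27.3 in cKO and 48.7 in WT (-21.4 points). With 1 library per group, no spread between replicates is available for these shifts.

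**Figure D4:**
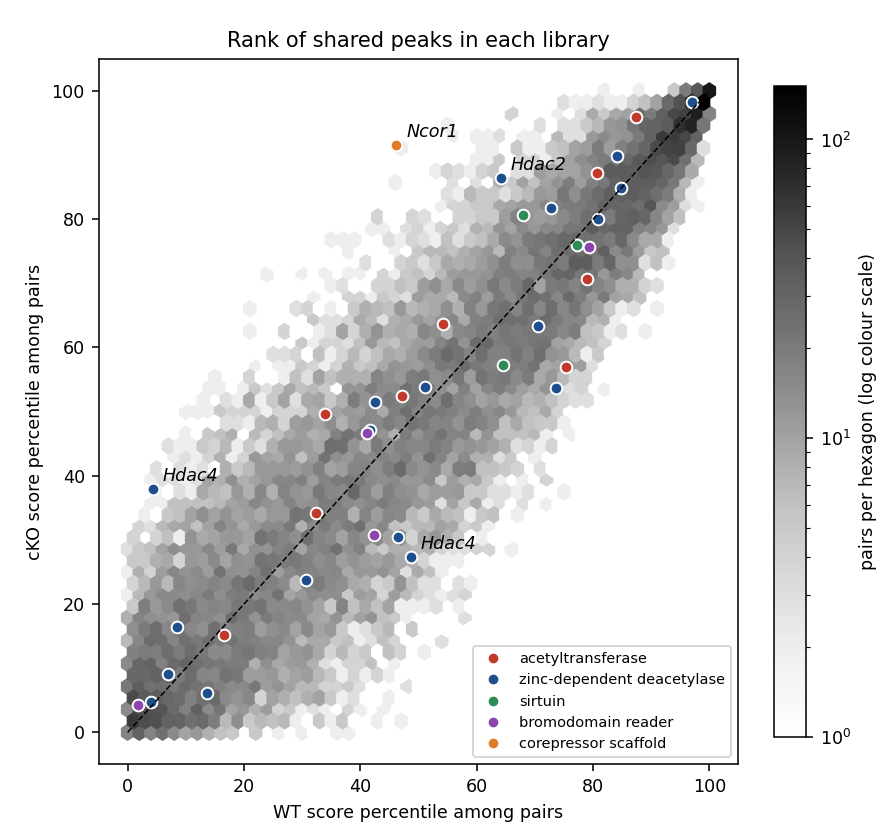
Score percentile among one-to-one overlapping pairs in the TKT cKO library (vertical axis) against the WT library (horizontal axis); grey hexagons are all 18926 pairs on a log colour scale, coloured points the 36 member pairs by class, and the dashed line marks equal rank. Ncor1, Hdac2 and 1 Hdac4 peak lie above the band of most pairs and 1 Hdac4 peak below it.

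The share of WT peaks that overlapped the cKO list was 50% for acetyltransferases and sirtuins, 57.6% for deacetylases and 83.3% for readers. The sirtuin and reader shares rested on 6 WT peaks each. Promoter peaks made up 12 of the 33 deacetylase WT peaks (36.4%, interval 20.4 to 54.9) and 10 of 18 for acetyltransferases (55.6%, interval 30.8 to 78.5). For both sirtuins and readers they made up 5 of 6 (83.3%, interval 35.9 to 99.6). The intervals of the classes overlapped for both shares. With so few peaks and genes, such overlap cannot show whether the classes differ. Among promoter peaks, 7 of 10 acetyltransferase, 9 of 12 deacetylase, 3 of 5 sirtuin and 4 of 5 reader WT peaks were shared. Peaks per gene with a peak came to 1.58 in cKO and 2.24 in WT for the members, and to 1.4 in cKO and 1.79 in WT over all genes.

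Genes whose products work in the same complexes were described beside them. The 39 partners of the acetyltransferases had 45 cKO and 68 WT peaks, and 44 of the 68 WT peaks were shared (64.7%, interval 52.2 to 75.9). The 34 partners of the deacetylases had 46 cKO and 68 WT peaks, with 46 of the 68 shared (67.6%, interval 55.2 to 78.5). The 27 other acetyl-lysine readers had 30 cKO and 57 WT peaks, with 31 of the 57 shared (54.4%, interval 40.7 to 67.6). Every cKO peak of the 3 lists had a WT partner. Of WT promoter peaks, 36 of 37, 31 of 35 and 25 of 29 were shared in these lists, and 24 of 33 at members (72.7%). Over the whole WT list, 56.1% of all peaks and 74.3% of promoter peaks were shared, so the members lay near the whole list. Within 500 bp of a RefSeq start, a WT peak without a cKO peak was found at 1 of 33 acetyltransferase partners (Tada2a), 1 of 27 deacetylase partners (Suds3) and 0 of 18 other readers with a WT peak there. Over all RefSeq protein-coding genes with a WT peak at a start, 12.6% had no cKO peak there, and at members 16.1%. These counts are a description of the lists, with no test.

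**Figure D5:**
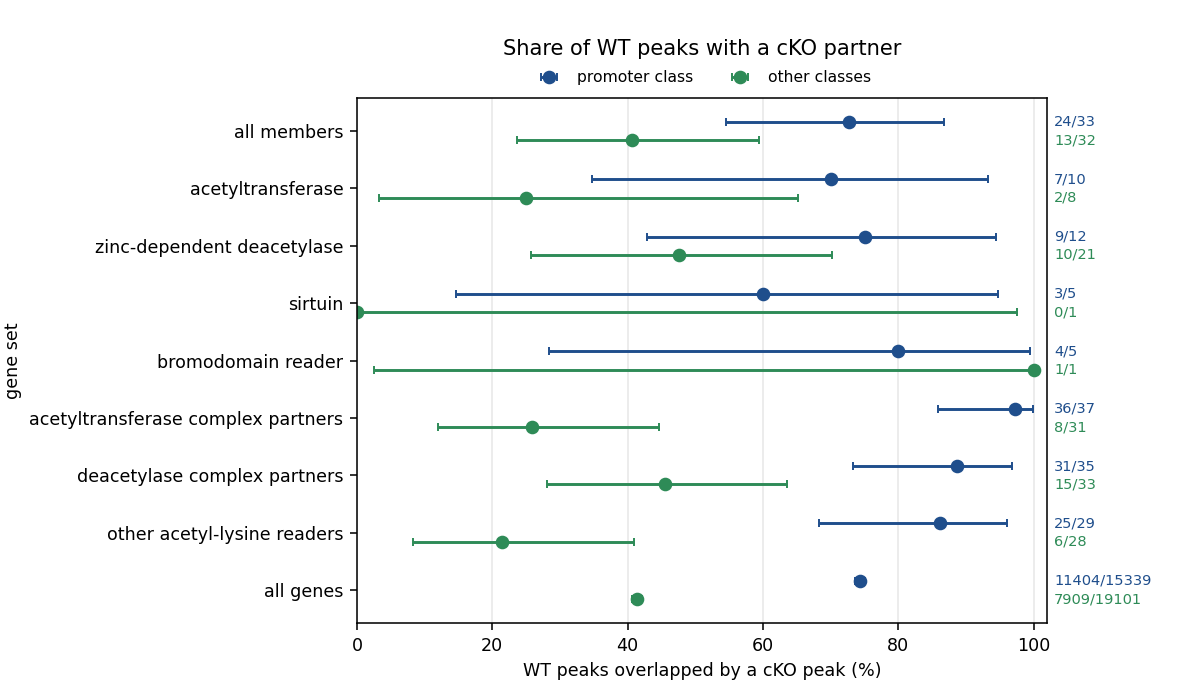
Percentage of WT peaks overlapped by a TKT cKO peak (horizontal axis), for promoter peaks (blue) and all other peaks (green), in the members, 4 of their classes, 3 lists of related genes and all genes; points are shares, bars exact 95% intervals for counting error, and the fractions give shared over total peaks. Promoter peaks have the higher share in every set shown except the bromodomain readers; readers and sirtuins each hold only 1 other peak.

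Sequence composition was compared over the 43 promoter windows of 29 members in the RefSeq table. The 27 windows touched by a peak in both libraries had a median GC content of 62% and a median CpG observed-to-expected ratio of 0.818. The 8 windows touched in WT alone, at 7 genes, had 66.2% and 0.77, and the 8 touched in neither had 51.5% and 0.244. The WT-only windows include a Kat6b window touched by 28 bp at the edge of a promoter peak that both libraries share. Over all windows the medians were 61.7% and 0.797 for both libraries, 59.3% and 0.613 for WT alone, and 48.3% and 0.229 for neither. Member windows open in both libraries were thus CpG-rich, as such windows were across the genome.

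The motif letters were searched on both strands. The ETS core was read as CCGGAAG and, by its usual definition, the GC box as GGGCGG. The NRF1 core was read as GCGCATGC, whereas AAGATGG stood for the YY1 core. The cyclic AMP response element was read as TGACGTCA and, as in other searches of this kind, a RUNX string as TGTGGT. For the TATA box, the common core promoter element, the letters were TATAAA. The CCAAT box was taken by the letters of its name. None of these strings contains another on either strand. The ETS core stood in 10 of the 43 member windows (23.3%) and in 8.86% of all 32851 windows. The GC box stood in 27 member windows (62.8%) and 35.7% of all windows. All windows include the many with no peak, so the windows touched by a peak in both libraries are the closer comparison. Among those, the ETS core stood in 10 of 27 member windows (37%) and in 21% of all 10408. The GC box stood in 21 of 27 (77.8%) and in 67.2% of all. Windows of a single gene can overlap, as at Brd9 and Kat6b, so the same match can count more than once. Of the 8 member windows touched in WT alone, 0 held the ETS core, 4 held the GC box and 2 the CCAAT box, where 9.32%, 55.3% and 30.7% of all such windows did. The NRF1 core stood in 6.98% of member windows and 2.71% of all, the YY1 core in 9.3% and 6.34%, the CCAAT box in 30.2% and 37.4%, the RUNX string in 20.9% and 16.8%, and the TATA box in 4.65% and 13.6%. The cyclic AMP response element was in 0 of the 43 member windows and 1.79% of all.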

How the data were processed

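ATAC-seq peak lists of 1 TKT cKO Treg and 1 WT Treg library were used. Trimmomatic and FastQC, BWA and MACS2 are named, with build mm10, per the submitters' processing notes. No version or setting, and nothing on duplicate removal or a shift for the transposase offset, is given in the sources used here. Peaks were called per library. The score of each peak was deposited by the authors and is not explained by the file headers. Peaks were ranked and filtered by it within their own list. Each peak's width, its distance to a start in bp, its single gene and its annotation class are also as the authors deposited them. Coordinates count from 1.

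The members, gene lists and motifs were chosen with earlier results of these data known. Sharing meant an overlap of at least 1 bp, intervals are exact Clopper-Pearson at 95%, and score bins numbered 10. Positions were printed for unshared promoter peaks, for the 2 strongest unshared WT peaks of each class, for members without a cKO peak and for the 4 members with most WT peaks. In related lists the rule took the 3 genes with most WT peaks, the 2 with the strongest unshared peaks and those without a cKO peak; some of these genes are not reported here. Sequences were shown for the members with the strongest unshared promoter peak and, in contrast, with the strongest shared one of 3 classes, where the peak covered most of the window. Brd1 was passed over because its peak missed the window. RefSeq promoter entries matched 29 of 33 members. Hdac1, Hdac3, Hdac10 and Kat6a had none, and their starts were taken from the RefSeq gene table. The RefSeq starts and spans, the one-to-one pairs and other peaks named were chosen after seeing the data. Alternatives were the overlap, the partner's gene, score, list length, width, promoter distance and the leading member. Overlaps were checked with bedtools 2.31.1, and 0 peaks differed in either direction. Simulated lists gave 0 wrong calls, but their peaks were widely spaced, so they do not test crowded loci. Work used Python 3.11.15, pandas 2.3.3 and scipy 1.17.1.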

Additional observations from a re-analysis of the deposited data

How the results depend on the processing

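Of 60 alternative values, 53 stayed within the main interval, or for counts within 1.5 times the main count, and 7 moved. With the WT list cut to the length of the cKO list, the share of WT member peaks with a cKO partner was 81.6%, that of cKO member peaks with a WT partner 84.2%, and members called in WT alone numbered 3. In the same setting the share was 75% for acetyltransferases, 87.5% for deacetylases and 72.7% outside promoters. Over all genes it was 83% in each direction, so the members moved with the whole list; the construction itself removes low scoring WT peaks. For WT peaks within 500 bp of a member's RefSeq start, chosen after seeing the data, the share was 81.8%. Above the median score of each list the reader share was 40%, within its wide interval. Requiring 50% overlap of the shorter peak, a partner with the same gene, or promoters within 1 kb left each share they were applied to within its interval, as did leaving out the member with most WT peaks (Hdac4, or Kat6b, Sirt1 and Brd2 in their classes). No paired analysis was possible because a single library stands for either genotype, so no replicate could be left out. Unknown depth limits every peak called in WT alone.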

Other observations

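Among the partner lists, the genes with most WT peaks differed in how many were shared, where 43.9% of all WT peaks had no cKO partner. Mllt3, which encodes the acetyl-lysine reader AF9, had 2 cKO and 15 WT peaks, of which 2 were shared; its strongest unshared WT peak, chr4:88002941-88003820 in an intron, stood at percentile 64. Smarca2, a bromodomain ATPase of BAF complexes, had 2 cKO and 5 WT peaks, of which 2 were shared. Baz1a, a subunit of ACF remodelers, had 1 cKO and 2 WT peaks, and its unshared WT promoter peak stood at percentile 37.1. Jade2, a scaffold of Kat7 complexes, had 5 cKO and 8 WT peaks, of which 5 were shared, and its strongest unshared WT peak stood at percentile 60. The coactivator Ncoa3 had 2 cKO and 5 WT peaks, of which 2 were shared. Mbd2, which links methylated DNA to NuRD, had 4 cKO and 9 WT peaks, of which 4 were shared, and 0 of its 2 WT promoter peaks was shared; the stronger stood at percentile 75.5.

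Some partner genes had a WT peak and no assigned cKO peak. Suds3, a Sin3 complex subunit, had 1 WT promoter peak, chr5:117115932-117116323, at percentile 70.1 with no cKO partner and no cKO peak within 500 bp of its start. Tada2a, an adaptor of Kat2a complexes, had 1 WT promoter peak at percentile 27.5, also unshared. Sgf29, Supt7l, Ing4, Meaf6, Sap18 and Brwd1 also had no assigned cKO peak, but within 500 bp of the start of each lay a peak of both libraries that was assigned to another gene. Sp140 had 1 WT peak away from its start, and Cecr2 had 1 WT peak and no RefSeq promoter entry. Tada2b, Tada3, Sin3a, Ing2, Brwd3 and Pbrm1 had no assigned peak, and both libraries had a peak within 500 bp of the start of each. Mideas carries the older symbol Elmsan1 in the lists, and Brdt had no peak at all.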
